A study of Homo sapiens with 12 samples.

Results

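LM BHLHE40-KD cells were compared before and after 6 h of hypoxia, on 4 of the 12 bead arrays of the series. LM is a subline of the human breast cancer line MDA-MB-231, enriched for metastasis to the lung. The BHLHE40-KD cells are 1 puromycin-selected line that carries a stable short hairpin RNA against the transcription regulator BHLHE40, so both groups compared here carry the hairpin and they are arrays of a single line. The treated group (BHLHE40-KD 6 h, n = 2 arrays) spent 6 h in 1% O2 and the untreated group (BHLHE40-KD untreated, n = 2 arrays) did not. Low glucose (1 mg/ml) is given with the 1% O2 in the labels, whereas the methods name 1% O2 only, so the cells are called hypoxic here and the part of the medium cannot be told apart from that of oxygen. The other 8 arrays hold the same line at 48 h and LM-EV cells, which carry the empty vector, at the same 3 times. The chip number in the titles places each group once on slide 1 and once on slide 2, and the labels call the arrays biological repeats.

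Cells meet low oxygen through the HIF factors. Their alpha subunits are marked for destruction by oxygen-dependent prolyl hydroxylases and build up when these enzymes slow down, after which genes for angiogenesis, glycolysis and survival are transcribed. BHLHE40 is itself a known HIF target and a basic helix-loop-helix repressor that binds the E-box CACGTG and feeds back on the circadian clock. Low oxygen and low glucose also act on other sensors, among them mTORC1, AMPK and the FOXO factors, and breast cancer cells of this kind secrete inflammatory cytokines under the control of NF-kB and AP-1.

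The values are the authors' background-subtracted and quantile-normalized hybridization signals, in arbitrary units on a linear scale. Signals under 16 were set to 16 before log2 was taken. A gene was tested if its probe was detected (detection p under 0.05) on both arrays of at least 1 of the 6 groups, which left 12336 genes with 1 probe each. The test was limma with all 12 arrays in 1 fit and the slide as a block, and the threshold was a p under 0.05 after Benjamini-Hochberg adjustment. Fold changes are given as log2 of BHLHE40-KD 6 h over BHLHE40-KD untreated with limma's standard error (SE). With 1 line, p-values measure only the spread between these arrays, and the smallest p that 2 arrays against 2 allow in an exact permutation test is 0.333. The lowest signal that counted as detected was 42.2 to 50.1 on the 4 arrays, and 20543 to 21830 of 47302 probes were detected on each. Of the markers of the parental line, VIM, CD44, CAV1 and MSN were detected on all 12 arrays, with signals of 17493 or more, and 1 other expected marker, FN1, was not detected on the 4 arrays. Of the markers expected to be low, CDH1, ESR1 and PGR were detected on none of the 4 arrays, while ERBB3 (125 to 265 on the 12 arrays) and GATA3 were detected on all 4. The deposited bead signals, from before normalization, did not all belong to the array they stood with. Those of BHLHE40-KD 6 h on slide 2 were identical to those of LM-EV 6 h on slide 1. Those of BHLHE40-KD untreated on slide 1 recurred for LM-EV 6 h on slide 2, and those of BHLHE40-KD 6 h on slide 1 for BHLHE40-KD 48 h on slide 2. On slide 2 the rank correlation of bead with normalized signals was 0.897 for BHLHE40-KD 6 h and 0.822 for BHLHE40-KD untreated. It was 0.902 for LM-EV 6 h, 0.816 for LM-EV 48 h and 0.904 for BHLHE40-KD 48 h there, against 1 for LM-EV untreated and on slide 1. The bead signals were therefore left out of the fit, and those slide 2 values under 1 could not be checked against them. Detection p-values followed the normalized signals on every array (rank correlation -0.983 to -0.99). EPCAM and KRT8, also among the markers expected to be low, were detected on all 12 arrays (1556 to 3650 and 2763 to 5099). Of 5 genes of other cells, PECAM1 (214 to 779) and ALB (134 to 408) were detected on all 12 arrays and CDH5 on none, while PTPRC and HBB were each detected on 1 array, a hypoxic BHLHE40-KD one.

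BHLHE40, the target of the hairpin, gave signals of 3410.3 and 4324 in hypoxic BHLHE40-KD cells, against 1771 and 1444 in untreated ones. The 2 groups did not overlap, and the log2 fold change of 1.26 (SE 0.29) missed the threshold (adjusted p = 0.0533). HIF1A, the oxygen-regulated subunit of HIF-1, had signals of 8826 and 11756 in hypoxic cells and 10058 and 9428 in untreated cells, which overlap. Of 10 HIF subunits and oxygen sensors tested, 0 passed the limma threshold, 3 had an unadjusted p under 0.05, and their log2 fold changes ran from -0.85 to 0.63.

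After 6 h of hypoxia 235 genes were higher (1.9% of 12336) and 401 were lower (3.25%) in BHLHE40-KD cells, 5.16% together. At an unadjusted p under 0.05 there were 2614 genes. These are bulk samples, in which fewer cells that express a gene and less RNA per cell cannot be told apart. Among those past the threshold 106 rises and 169 falls were at least 2-fold, the median log2 fold change was 0.95 for rises and -0.92 for falls, and that of all genes was -0.019. All 636 moved the same way on both slides, but passing a test fitted to these same arrays favours that, so it is no separate evidence. Each call rests on 1 probe. Of 172 called genes with several detected probes, 23 had probes whose fold changes differed in sign. With the mean of the detected probes 2 of the 636 turned direction. The study's own rule, which asks for a change of 1.5-fold or more, one way, on each slide, was met by 384 genes upward (3.11%) and 644 downward (5.22%), of which 178 and 322 also passed limma. Without the slide as a block 90 rises and 140 falls passed, all among the 636. Without the untreated array of slide 2 the number of calls dropped sharply, as given with the processing below. Each of the 636 kept its direction there. They had been chosen in a fit that holds the same remaining arrays, which favours that, so it is no separate evidence either.

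**Figure D1:**
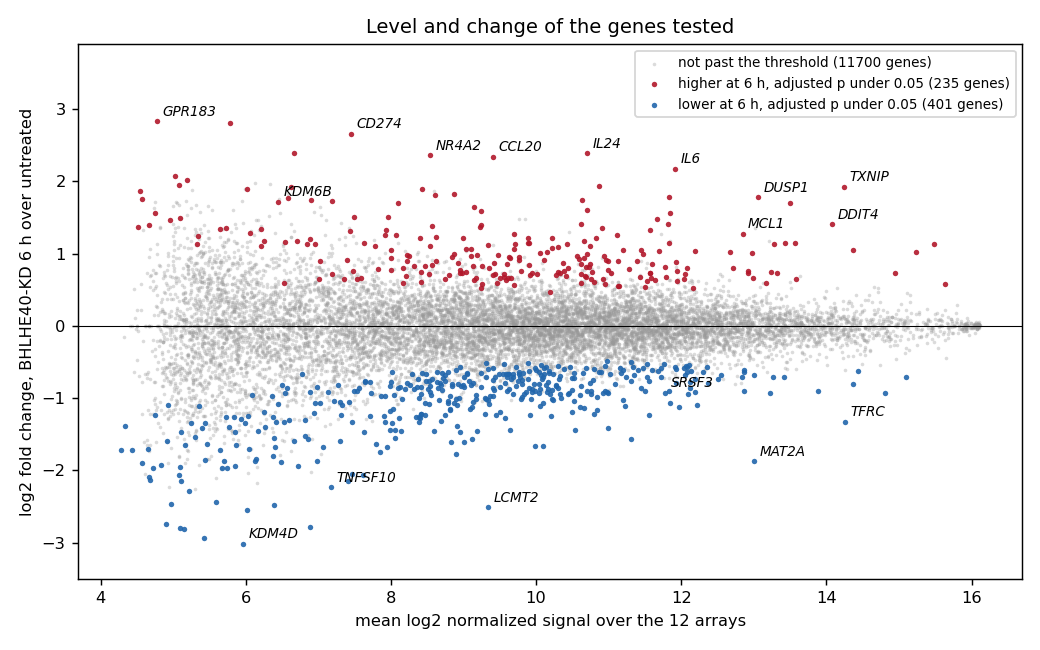
Each point is 1 of the 12336 genes tested, with its mean log2 normalized signal over the 12 arrays on the x axis and its log2 fold change (BHLHE40-KD 6 h over untreated) on the y axis. Red points are the 235 rises and blue points the 401 falls past the threshold, and the spread of the other genes, in grey, is widest at low signal.

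The plot of level against change shows called genes over the whole range of signal. Falls such as KDM4D and rises such as GPR183 lie at the dim end, where 57 of the 401 falls were detected on neither hypoxic array and 20 of the 235 rises on neither untreated array. MAT2A, TFRC, TXNIP and DDIT4 lie at the bright end.

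Secreted cytokines and chemokines made up the list with the highest share of rises. Of 23 tested, 9 rose (39.1%, against 1.9% of all genes) and 1 fell (4.35%, against 3.25%). The median log2 fold change was 0.32. IL6, the gp130 cytokine of inflammation, had signals of 13843 and 15158 in hypoxic BHLHE40-KD cells, against 3464 and 2977 in untreated BHLHE40-KD cells (2.17, SE 0.19, adjusted p = 0.00655). CCL20, the ligand of CCR6, had 1637 and 2301 in hypoxic cells and 371 and 395 in untreated cells (2.34, SE 0.22, adjusted p = 0.00655). For both genes the hypoxic arrays lay far above the untreated arrays, with no overlap. IL24, a cytokine of the IL-10 family, had 4251 and 4724 against 978 and 750.3 in untreated cells (2.39, SE 0.19, adjusted p = 0.00655).

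The interleukin-1 genes differed between slides at baseline. IL1A, an alarmin that signals through IL1R1, had signals of 1799 and 2785 at 6 h and of 402 and 847 in untreated cells (adjusted p = 0.00906). IL1B, which is released after inflammasome cleavage, had 15388 and 14346 at 6 h, against 3286 and 6396 untreated (1.70, SE 0.26, adjusted p = 0.0177). The hypoxic arrays of IL1B lay close together and the untreated ones apart, and the groups overlapped for neither gene. IL11, another gp130 cytokine, had 3084 and 2548 at 6 h and 1058 and 808 untreated (1.60, adjusted p = 0.0172). CXCL8, the neutrophil chemokine IL-8, was bright in both groups, with 59789 and 61959.5 at 6 h and 24612 and 31448 untreated (1.13, adjusted p = 0.02). The highest signal on any array was 72594, so its hypoxic values lay near the top of the scale. LIF (1.08) and IL12A (0.96) rose as well. The chemokine CXCL1 did not move with them, with a log2 fold change of 0.0022 (adjusted p = 1).

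The member that fell was TNFSF10, the death receptor ligand TRAIL, with signals of 22.2 and 32.4 in hypoxic cells, where it was not detected, and 129 and 123 in untreated cells. It was at least 2.54-fold lower, taking the lowest detected signal of each hypoxic array as the bound (adjusted p = 0.0158). When the slide was left out of the fit, 8 of the 9 rises and the fall of TNFSF10 still passed.

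**Figure D2:**
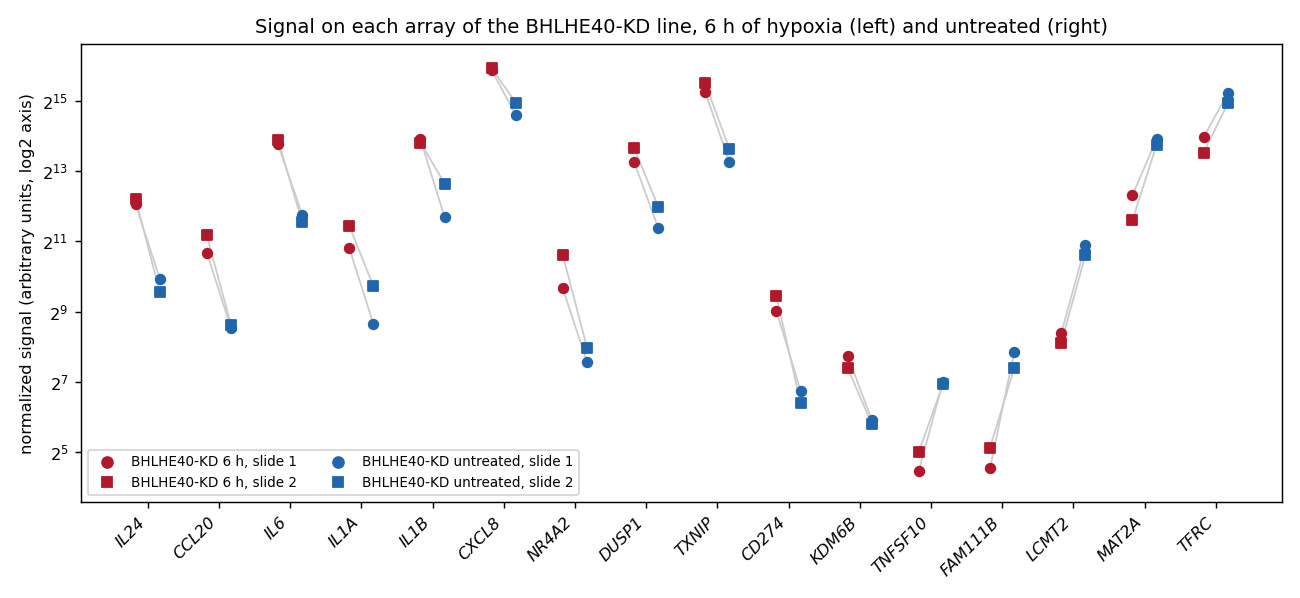
Normalized signal (arbitrary units, log2 axis) of 16 genes on each of the 4 arrays, with BHLHE40-KD 6 h in red on the left and BHLHE40-KD untreated in blue on the right of each gene, circles for slide 1 and squares for slide 2, joined within a slide. Both hypoxic arrays lie above both untreated arrays for IL24 to KDM6B and below them for TNFSF10 to TFRC.

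NF-kB feedback and target genes rose in 3 of 13 cases (23.1%, against 1.9% of all genes), with a median of 0.53. PTGS2, the inducible cyclooxygenase, had 11186 and 10550.5 in hypoxic cells and 4309 and 3496 in untreated cells (1.48, SE 0.14, adjusted p = 0.00655). SOD2, the mitochondrial superoxide dismutase, rose less (0.73, adjusted p = 0.0492). The feedback inhibitor NFKBIA had lower values in hypoxic cells without passing (-0.50, adjusted p = 0.0966), and TNFAIP3, a ubiquitin editor that also limits NF-kB, did not pass either (0.53, adjusted p = 0.238). Only PTGS2 of this list passed without the slide as a block. CD274, which encodes the immune checkpoint ligand PD-L1, is on none of the lists and was 1 of the largest rises, with 520.2 and 696 at 6 h and 108 and 84.3 untreated (2.66, SE 0.29, adjusted p = 0.00734).

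The promoters of 5 of these genes and of BHLHE40 are shown because motifs of factors that act under stress or at the transcription start occur in them. They are RefSeq sequences (GRCh38.p14), each 300 bases from 250 bases before to 50 after the first start listed for the gene, read 5′ to 3′ on the strand of the gene. Motifs found on either strand are in capitals: the AP-1 site TGACTCA, the kappaB core GGANNTTCC, the cyclic AMP response element TGACGTCA, the E-box CACGTG, the hypoxia response core ACGTG (which every E-box also holds) and the TATA box TATAAA.
CXCL8, chr4:73740319-73740618, plus strand: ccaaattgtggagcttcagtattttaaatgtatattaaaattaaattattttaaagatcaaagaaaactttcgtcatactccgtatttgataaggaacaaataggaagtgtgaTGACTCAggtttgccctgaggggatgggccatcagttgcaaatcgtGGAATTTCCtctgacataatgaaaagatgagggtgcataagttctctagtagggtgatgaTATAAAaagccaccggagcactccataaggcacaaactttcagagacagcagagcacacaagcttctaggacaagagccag
IL6, chr7:22726950-22727249, plus strand: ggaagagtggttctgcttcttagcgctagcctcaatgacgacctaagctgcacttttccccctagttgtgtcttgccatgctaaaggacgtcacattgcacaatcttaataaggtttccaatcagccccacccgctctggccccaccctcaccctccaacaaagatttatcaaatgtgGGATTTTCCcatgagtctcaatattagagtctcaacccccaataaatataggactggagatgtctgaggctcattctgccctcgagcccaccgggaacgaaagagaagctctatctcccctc
CCL20, chr2:227813592-227813891, plus strand: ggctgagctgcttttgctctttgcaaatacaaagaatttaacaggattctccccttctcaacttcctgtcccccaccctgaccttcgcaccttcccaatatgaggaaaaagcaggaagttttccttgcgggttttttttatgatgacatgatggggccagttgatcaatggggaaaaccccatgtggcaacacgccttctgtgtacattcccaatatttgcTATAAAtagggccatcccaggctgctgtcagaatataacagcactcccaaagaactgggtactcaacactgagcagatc
DUSP1, chr5:172771146-172771445, minus strand: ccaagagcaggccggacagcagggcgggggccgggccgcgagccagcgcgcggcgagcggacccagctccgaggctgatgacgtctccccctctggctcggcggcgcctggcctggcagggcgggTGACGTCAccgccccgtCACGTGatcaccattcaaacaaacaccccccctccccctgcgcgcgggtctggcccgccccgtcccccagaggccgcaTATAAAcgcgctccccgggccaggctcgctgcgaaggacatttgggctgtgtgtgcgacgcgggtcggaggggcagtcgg
MAT2A, chr2:85538918-85539217, plus strand: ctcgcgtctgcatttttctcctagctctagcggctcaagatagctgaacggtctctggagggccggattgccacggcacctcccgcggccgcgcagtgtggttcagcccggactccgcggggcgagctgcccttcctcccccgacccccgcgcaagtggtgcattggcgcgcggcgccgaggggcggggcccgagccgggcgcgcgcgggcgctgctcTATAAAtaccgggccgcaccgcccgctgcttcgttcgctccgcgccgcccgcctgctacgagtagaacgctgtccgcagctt
BHLHE40, chr3:4979187-4979486, plus strand: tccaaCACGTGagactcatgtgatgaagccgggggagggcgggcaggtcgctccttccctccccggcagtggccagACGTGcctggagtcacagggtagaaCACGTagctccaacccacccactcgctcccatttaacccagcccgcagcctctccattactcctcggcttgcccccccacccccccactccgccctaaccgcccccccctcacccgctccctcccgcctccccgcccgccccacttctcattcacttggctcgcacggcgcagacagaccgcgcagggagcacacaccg

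In CXCL8 the AP-1 site starts 137, the kappaB core 91 and the TATA box 31 bases before the start. IL6 holds a kappaB core 72 bases before it and CCL20 a TATA box 29 bases before it. DUSP1 carries a cyclic AMP response element, an E-box and a TATA box at 125, 108 and 30 bases, MAT2A, 1 of the falls, a TATA box at 32 bases, and BHLHE40 an E-box at 245 bases with 2 further ACGTG cores. Promoters were found for 9895 of the 12336 genes tested (80.2%), among them 190 of the 235 rises and 331 of the 401 falls. TATAAA on the gene's strand 20 to 40 bases before the start was present in 6.32% of the promoters of rises, 3.32% of those of falls and 2.15% of all promoters of tested genes. Anywhere in the window and on either strand the shares for rises, falls and all genes were 13.7%, 7.55% and 6.18% for TATAAA and 7.37%, 5.14% and 4.57% for GGANNTTCC. They were 4.21%, 3.93% and 3.06% for TGACTCA, 3.68%, 4.23% and 3.29% for TGACGTCA, 9.47%, 11.8% and 10.1% for CACGTG and 27.4%, 32.6% and 26.8% for ACGTG. The narrower window of 20 to 40 bases before the start was chosen after the sequences had been searched. It held TATAAA on the gene's strand in 12 rises, among them CXCL8, CCL20, DUSP1, PTGS2, JUNB, GDF15, BTG1, INSIG1 and CYP4B1. In 11 falls it did so too, among them MAT2A, TFRC, TNFSF10 and SRSF3. A match is a description of the sequence and not a site shown to be bound.

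Of 19 genes on the list of immediate early factors 5 rose (26.3%, against 1.9% of all genes, median 0.56). NR4A2, an orphan nuclear receptor, led them with 810.0 and 1556 in hypoxic BHLHE40-KD cells, against 189.9 and 252 in untreated ones (2.36, SE 0.20, adjusted p = 0.00655). ZFP36, which destabilizes cytokine mRNAs, had 1332 and 2104 at 6 h and 696 and 818 untreated (1.15, adjusted p = 0.0173). The AP-1 subunits JUNB (0.95) and FOSL1 (0.74) rose as well, as did the stress-induced IER3 (0.74). FOS had a higher fold change than these without passing (1.23, SE 0.40, adjusted p = 0.132). Its hypoxic arrays read 309.8 and 299 and its untreated arrays, which lay apart, 205 and 81.8. EGR1 (0.68, adjusted p = 0.0537) and KLF6 (0.38, adjusted p = 0.0866) did not pass. Without the slide as a block 1 of the 5, JUNB, passed.

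Feedback regulators and targets of ERK signalling rose in 5 of 16 cases (31.2%, against 1.9% of all genes, median 0.53). The dual-specificity phosphatase DUSP1 had signals of 9856 and 12987 in hypoxic cells and 2671 and 4053 in untreated cells (1.78, SE 0.26, adjusted p = 0.0162). DUSP5, a nuclear ERK phosphatase, had 11816 and 15915 at 6 h and 5728 and 6722 untreated (1.14, adjusted p = 0.0138). SPRY4, which acts upstream of RAS, rose by 1.04, with 0.35 for the weakest of its 3 probes, and ERRFI1, an inhibitor of the EGF receptor, by 1.02 (adjusted p = 0.0249). ETV5, an ETS factor induced by ERK, rose by 0.53. DUSP6 (0.53, adjusted p = 0.23) and SPRY2 (0.35, adjusted p = 0.335) did not pass. Without the slide as a block DUSP1, DUSP5 and SPRY4 passed.

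Among EGF ligands, receptors and sheddases 1 of 12 rose (8.33%, against 1.9% of all genes), the receptor EGFR, whose 2 probes disagreed (0.73 and -0.25). The ligand HBEGF had 5109.7 and 5666 in hypoxic cells and 4091 and 4126 in untreated cells, a small difference that did not pass (0.39, adjusted p = 0.245). Of 20 growth and angiogenic factors 3 rose (15%, against 1.9% of all genes). They were GDF15, a stress-induced member of the TGF-beta family (1.57, SE 0.21), NAMPT, an enzyme of NAD synthesis that is also secreted (1.41, SE 0.16), and PDGFA (1.14, SE 0.20). GDF15 differed between slides, with 14516 and 27111 at 6 h and 4342 and 10315 untreated. With the slide as a block its adjusted p was 0.0136, and 0.364 when the slide was left out of the fit. VEGFC did not pass (0.24, adjusted p = 0.354). TGF-beta and YAP response genes moved in both directions, with 1 rise (5.56%, against 1.9% of all genes) and 2 falls (11.1%, against 3.25%) among 18. The homeobox repressor TGIF1 rose (1.04), the HLH factor ID3 fell (-0.61) and so did PMEPA1 (-0.96, with another probe at 0.51), while the matricellular genes CCN2 (0.45, adjusted p = 0.113) and CCN1 (0.17, adjusted p = 0.559) did not pass.

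Genes of nutrient sensing and FOXO targets rose in 6 of 23 cases (26.1%, against 1.9% of all genes, median 0.41). TXNIP, an arrestin that restrains glucose uptake, had 38702 and 45956 in hypoxic BHLHE40-KD cells and 9749 and 12674 in untreated BHLHE40-KD cells (1.92, SE 0.22, adjusted p = 0.00865). PDK4, which turns off pyruvate dehydrogenase, had 1190.2 and 787 at 6 h and 308 and 243 untreated (1.82, SE 0.32, adjusted p = 0.0254). Signals of DDIT4, the mTORC1 inhibitor REDD1, were 31275 and 50011 at 6 h and 12086 and 18490.4 untreated, with an adjusted p of 0.00833 that became 0.175 when the slide was left out of the fit. CCNG2, a FOXO target that slows the cell cycle, read 2919.6 and 3468 against 1454 and 1296 untreated. BTG1, an antiproliferative factor (1.04, SE 0.14), and the ubiquitin ligase adaptor KLHL24 (0.85, SE 0.17) rose too. Members that did not pass went both ways: ARRDC3 had 0.92 (adjusted p = 0.214) and SESN1 -0.82 (adjusted p = 0.0689). TXNIP, PDK4, CCNG2 and BTG1 passed without the slide as a block.

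The antiapoptotic BCL2 member MCL1 had signals of 12574 and 12938 in hypoxic cells and 4559.9 and 6099 in untreated cells (1.27, SE 0.14, adjusted p = 0.00734), although its other probe gave 0.31. PMAIP1, the proapoptotic NOXA, rose by 0.80, so 2 of 15 genes of the BCL2 family and death receptors rose (13.3%, against 1.9% of all genes) and 13 did not pass. Of 19 autophagy and lysosome genes 2 rose (10.5%, against 1.9% of all genes), GABARAPL1 (1.06) and WIPI1 (0.94), which act in autophagosome formation. When the slide was left out of the fit, 1 of the 2 calls in each of these lists passed. SAT1, the rate-limiting enzyme of polyamine breakdown, rose (1.15, adjusted p = 0.0242). MAT2A, which makes S-adenosylmethionine, fell (-1.87, SE 0.20, adjusted p = 0.00734). They were the only calls among 14 genes of methionine and polyamine metabolism, 7.14% in each direction against 1.9% and 3.25% of all genes. MAT2A had 5093 and 3103 at 6 h and 15359 and 13792 untreated, with no overlap.

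Classical HIF targets outside glycolysis were higher in most cases but rarely past the threshold. Of 32 tested, 29 had a positive log2 fold change (46.9% of all genes did), 12 of them at an unadjusted p under 0.05. Of the 3 with a negative one, 1 had an unadjusted p under 0.05. The list ran from -1.60 to 1.29, with a median of 0.42. Past the threshold 1 rose (3.12%, against 1.9% of all genes), the lipoprotein receptor VLDLR (0.79, SE 0.16, adjusted p = 0.0357). NDRG1, a stress-response gene, had 8914 and 14148 in hypoxic cells and 4433 and 5610.0 in untreated cells (1.17, adjusted p = 0.0587). ANKRD37 had 1644 and 3083 against 1094 and 772 untreated (1.29, adjusted p = 0.0696). In both genes the hypoxic arrays lay above the untreated ones, with slide 2 higher than slide 1 at 6 h. ANGPTL4, which inhibits lipoprotein lipase, had the same fold change as NDRG1 with a wider error (1.17, SE 0.46, adjusted p = 0.197). VEGFA, the main angiogenic factor, had 1447 and 1846 at 6 h and 1182 and 1172 untreated (0.47, adjusted p = 0.142). ADM (0.52), the demethylase KDM3A (0.81), the collagen hydroxylase P4HA1 (0.42) and the lysyl oxidase LOX (0.64) were in the same range, with adjusted p of 0.0746 to 0.369.

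None of 26 genes of glycolysis and glucose transport passed the limma threshold, 2 had an unadjusted p under 0.05 and the median was 0.11. The glucose transporter SLC2A3 had 13951 and 21925 in hypoxic cells and 6795 and 6850.4 in untreated cells (1.36, SE 0.36, adjusted p = 0.0763). SLC2A1 (0.36), HK2 (0.69) and PGK1 (0.36) had adjusted p of 0.217 to 0.391. LDHA, the lactate dehydrogenase subunit, read 69754 and 68150.2 at 6 h and 69598 and 69244 untreated, close to the top of the scale at 72594. The log2 fold changes of its 3 probes ran from -0.0099 to 0.43. Of 16 clock genes and BHLHE repressors 2 rose (12.5%, against 1.9% of all genes). They were the cryptochromes CRY1 (0.76, SE 0.15) and CRY2 (0.77, SE 0.15), which repress CLOCK and BMAL1. With the slide left out of the fit neither passed (adjusted p = 0.089 and 0.071). Of 29 ATF4 targets and genes of amino acid supply 1 rose (3.45%, against 1.9% of all genes), the stress factor ATF3 (1.36, SE 0.14, adjusted p = 0.0071). TRIB3 (0.95, adjusted p = 0.0914) and DDIT3 (0.27, adjusted p = 0.2) did not pass, and 0 of 17 chaperones of the endoplasmic reticulum did in limma, with 3 at an unadjusted p under 0.05.

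All 33 ribosome biogenesis genes tested had a negative log2 fold change (median -0.36) and 5 fell (15.2%, against 3.25% of all genes). NOP56, a core protein of box C/D snoRNPs, had 22404 and 19285 in hypoxic BHLHE40-KD cells and 38991 and 40316 in untreated BHLHE40-KD cells (-0.93, SE 0.14, adjusted p = 0.0171). UTP14A (-1.04), RRS1 (-0.93), NIP7 (-0.73) and BYSL (-0.68), which act in the assembly of the small or the large subunit, fell as well, and POLR1B, a subunit of RNA polymerase I, did not pass (-0.35, adjusted p = 0.483). None of the 5 passed without the slide as a block in limma, where their adjusted p ran from 0.0537 to 0.13.

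DNA replication and S phase genes were lower in 37 of 38 cases (median -0.47) and 5 fell (13.2%, against 3.25% of all genes). POLE2, a subunit of DNA polymerase epsilon, had 2252 and 2279.8 at 6 h and 5216 and 4309 untreated (-1.07, SE 0.14, adjusted p = 0.0138). The flap endonuclease FEN1 had 6618 and 5660.2 at 6 h and 10745 and 12656 untreated (-0.93, SE 0.16, adjusted p = 0.0237). E2F2 (-0.96), the licensing factor CDT1 (-0.89) and GINS3 of the replicative helicase (-0.87) fell too. The licensing ATPase CDC6 had the lowest fold change of the list at a low signal (-1.27, adjusted p = 0.074), while PCNA (-0.39), RRM2 (-0.49) and E2F1 (-0.63) had adjusted p of 0.164 to 0.256. FEN1 alone passed without the slide as a block. Mitotic genes were spread around zero, with 20 positive and 17 negative among 37, a median of 0.022, 0 past the limma threshold and 5 at an unadjusted p under 0.05. The 54 genes of the respiratory chain had a median of 0.030, with 0 past the limma threshold and 4 at an unadjusted p under 0.05.

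Of 36 interferon-stimulated genes 4 fell (11.1%, against 3.25% of all genes), 25 had a negative and 11 a positive fold change, and the median was -0.39. Of all genes tested 52.7% had a negative fold change. IRF1, the transcription factor of the response, had 253 and 244 in hypoxic cells and 615 and 453 in untreated cells (-1.09, SE 0.18, adjusted p = 0.0213). IFIT3, which takes part in binding viral RNA, had 1439 and 988 at 6 h and 2573 and 2660.2 untreated (-1.13, adjusted p = 0.0373), with another probe at -0.23. EPSTI1 was not detected on the hypoxic arrays and was at least 1.64-fold lower, and PARP9 fell too, with 456 and 322 at 6 h and 768 and 771 untreated (adjusted p = 0.049). IFIT2 (-0.72, adjusted p = 0.184) and MX1 (-0.59, adjusted p = 0.137) did not pass. Splicing factors moved in both directions. Of 27 tested, the SR proteins SRSF3 (-0.92), SRSF6 (-0.90) and SRSF2 (-0.80) fell (11.1%, against 3.25% of all genes). RSRC2 rose (1.01), which is 3.7% of the 27, against 1.9% of all genes. SRSF6 had 11440.3 and 9897 at 6 h and 20838 and 19051 untreated. CLK1, a kinase of SR proteins, had 0.81 (adjusted p = 0.0544).

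**Figure D3:**
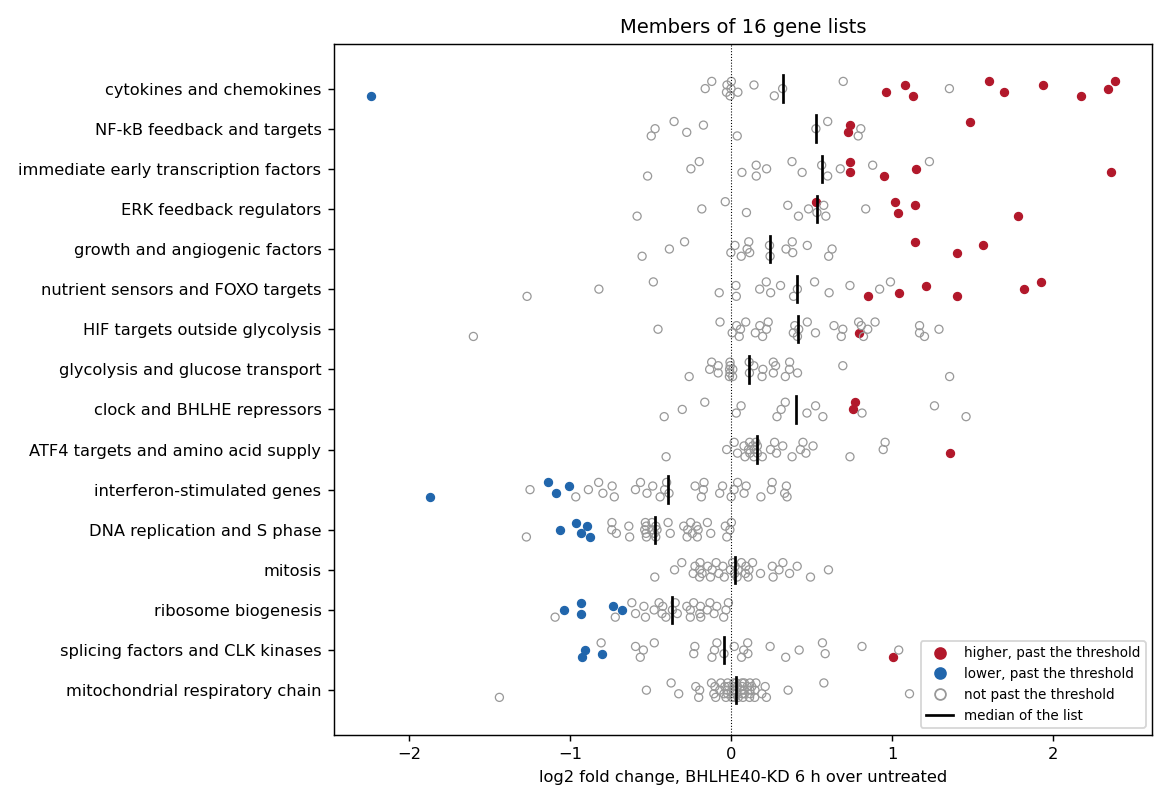
Log2 fold change (x axis, BHLHE40-KD 6 h over untreated) of every tested member of 16 gene lists (y axis), with filled red and blue points for rises and falls past the threshold, open points for the rest and a black bar at the median of the list. Medians run from -0.47 for S phase genes to 0.56 for immediate early factors, and the cytokine list spans from -2.23 (TNFSF10, not detected at 6 h) to 2.39.

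In the plot of the lists, ribosome biogenesis (15.2%) and replication (13.2%) have 5 falls each. The interferon-stimulated genes have 4 (11.1%), the splicing factors 3 (11.1%) and the cytokines 1 (4.35%), against 3.25% of all genes. Mitosis and the respiratory chain have no call in limma, and most of their points sit near zero. The members and lists were chosen with earlier results of these data known, so their counts are a description.

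Among all genes the 15 largest rises held CD274, IL24, NR4A2, CCL20, IL6, IL1A and TXNIP, described above. The histone demethylase KDM6B, which removes H3K27 methylation, had 216 and 169 in hypoxic cells and 60.5 and 55.9 in untreated cells (1.72, adjusted p = 0.0245), and with KDM7A (1.31, adjusted p = 0.0364) it made 2 rises (12.5%, against 1.9% of all genes) among 16 listed JmjC demethylases, enzymes that need oxygen. The list does not hold KDM4D, a JmjC demethylase of H3K9 that fell and is described with the falls. CYP4B1, a cytochrome P450, had 478 and 599 at 6 h and 132 and 156 untreated (1.90, adjusted p = 0.00734). TCP11L2 was detected on the hypoxic arrays alone, with 225 and 340.5, and was at least 6.1-fold higher. The same held for GPR183, an oxysterol receptor (at least 2.52-fold), RFX3, a factor of ciliogenesis (at least 2.86-fold), and the Notch target HES7 (at least 1.93-fold). L3MBTL1 (at least 1.87-fold), NBR1, an autophagy receptor (at least 1.49-fold), and MAGEB18 (at least 1.49-fold) completed the 15, with hypoxic signals of 54.5 to 114. The rank of these 7 rests on untreated signals below detection, and for GPR183, HES7, NBR1 and MAGEB18 also on the floor of 16. A gene with a small bound can therefore stand above measured rises such as that of DUSP1. Of the 3 probes of L3MBTL1 the lowest gave a log2 fold change of 0, and the lowest of the 3 of RFX3 gave 0.56.

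Of the 15 largest falls 12 were not detected on either hypoxic array. Their rank rests on signals below detection and, except for FAM111B, PATZ1 and TNFSF10, on the floor of 16. A gene with a small bound can therefore stand above measured falls such as that of MAT2A. FAM111B, a protease gene, had 23.4 and 35.2 in hypoxic cells and 231 and 169 in untreated cells, which is at least 3.96-fold lower (adjusted p = 0.00655). VESTAR (at least 2.92-fold), the H3K9 demethylase gene KDM4D (at least 2.59-fold), PATZ1, a zinc finger factor (at least 2.58-fold), DOP1A (at least 2.46-fold), LHX4, a LIM homeobox factor (at least 2.23-fold), and ACTRT3 (at least 2.23-fold) followed. UFSP1, DRC3, SHLD1 and PCYT1A were at least 2.15-, 1.78-, 2.06- and 1.42-fold lower, with untreated signals of 70.5 to 128. The other 3 stayed measurable on at least 1 hypoxic array. LCMT2, a tRNA-modifying methyltransferase, had 333 and 276 at 6 h and 1901 and 1568 untreated (-2.51, SE 0.23, adjusted p = 0.00655). ATOH8, a basic helix-loop-helix factor, had 147 and 94.1 at 6 h and 447 and 601 untreated (-2.14, SE 0.29, adjusted p = 0.0138). MAGOHB, of the exon junction complex, was detected on 1 of the 2 hypoxic arrays, with 25.3 and 62.3, and read 244 and 199 in untreated cells.

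Falls of bright genes were looked at apart, by a limit of 1000 on the untreated mean that was chosen after the values had been seen. TFRC, the transferrin receptor for iron uptake, had 15915 and 11775 in hypoxic BHLHE40-KD cells and 37978 and 30976 in untreated BHLHE40-KD cells (-1.33, SE 0.19, adjusted p = 0.0156). When the slide was left out of the fit its adjusted p was 0.122. LFNG, a glycosyltransferase that modifies Notch, had 1407 and 1265 at 6 h and 4790.3 and 3720.2 untreated (-1.66, SE 0.16, adjusted p = 0.00655). PRMT6, an arginine methyltransferase, had 1597 and 1197 at 6 h and 4599 and 2966 untreated (-1.42, SE 0.14, adjusted p = 0.00655). In each of these genes both hypoxic arrays were below both untreated arrays. NCOA5, a nuclear receptor coregulator (-1.67), FAM217B (-1.57), DOLK, the dolichol kinase (-1.45), HPS6, of a complex for lysosome-related organelles (-1.44), and EPM2AIP1 (-1.27) were the other bright falls of the 10 largest, beside LCMT2 and MAT2A.

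Whether these changes were still there at 48 h was read from BHLHE40-KD 48 h against BHLHE40-KD 6 h, which shares the 6 h arrays with the comparison above, so a chance deviation of these arrays would appear in both with opposite sign. In limma 238 genes passed (1.93%), 135 higher and 103 lower at 48 h than at 6 h. IL6 was lower at 48 h, with 1879 and 1941 (-2.92, adjusted p = 0.00753), below its untreated signals. CCL20 (-2.03), NR4A2 (-2.47), IL11 (-1.81), GDF15 (-1.92) and DDIT4 (-1.13) were lower at 48 h too, with adjusted p of 0.00864 to 0.0254. NR4A2 read 160.5 and 255 at 48 h, close to its untreated signals. For other genes the 48 h signals stayed near those at 6 h and no difference was detected. IL24 had 3209.9 and 4396 at 48 h (-0.25, adjusted p = 0.512), IL1B 14148 and 13156 (-0.12, adjusted p = 0.84), TXNIP 44685 and 43011 (0.056, adjusted p = 0.923) and ERRFI1 57965 and 51172 (0.019, adjusted p = 0.971). Among the falls, RRS1 (1.01), UTP14A (0.96), SRSF6 (0.82) and LCMT2 (1.52) were higher at 48 h than at 6 h past the threshold, and MAT2A, with 8719.8 and 7078, was not (0.98, adjusted p = 0.0572). In this comparison 99 genes passed when the slide was left out of the fit.

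**Figure D4:**
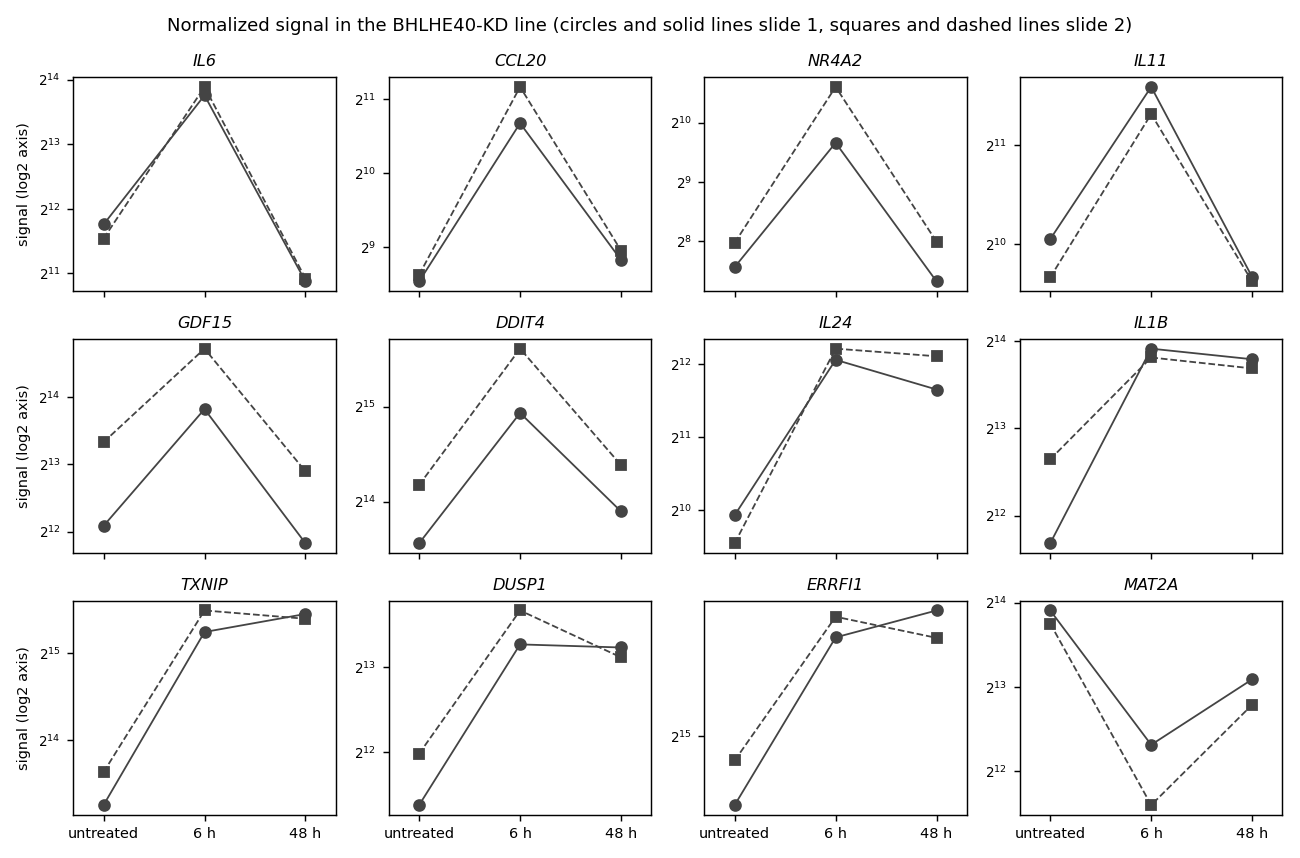
Normalized signal (log2 axis) of 12 genes in BHLHE40-KD cells untreated, at 6 h and at 48 h, with circles and solid lines for slide 1 and squares and dashed lines for slide 2. IL6, CCL20, NR4A2, IL11, GDF15 and DDIT4 peak at 6 h on both slides, IL24, IL1B, TXNIP, DUSP1 and ERRFI1 stay above their untreated signals at 48 h, and MAT2A has its lowest signal at 6 h.

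Hypoxia was also applied to LM-EV cells, and the difference between the responses of the lines was tested as an interaction. Of 12336 genes 3 passed in limma (0.0243%), with 756 at an unadjusted p under 0.05. All 3 had signals at the edge of detection, so their fold changes rest on probes not detected in 1 or more of the groups and on the floor of 16. GPRACR read 65.6 and 51.7 in hypoxic and 13.5 and 13.3 in untreated BHLHE40-KD cells (1.86, against -1.20 in LM-EV, difference 3.07, adjusted p = 0.0179). SYCP2, of the synaptonemal complex, was detected on none of the 4 BHLHE40-KD arrays (1.37 in BHLHE40-KD and -1.53 in LM-EV, difference 2.89, adjusted p = 0.0179). RPRM, a p53 target that arrests the cell cycle, was lower in hypoxic BHLHE40-KD cells (-1.72, at least 1.06-fold) and at the floor on all LM-EV arrays of this comparison (difference -1.72, adjusted p = 0.019). With a floor of 64 in place of 16 none of the 3 passed in limma, with 913 genes at an unadjusted p under 0.05.

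For no other named gene was a difference between the lines detected. The median SE was 0.18 for the fold change of 1 line. The SE of a difference between lines is larger, 0.28 for IL24 and 0.42 for CD274. IL24 had 2.39 in BHLHE40-KD and 1.44 in LM-EV (difference 0.95, interaction adjusted p = 0.732), CD274 2.66 and 1.40 (difference 1.26, adjusted p = 0.732), and CXCL8 1.13 and 0.20 (difference 0.93, adjusted p = 0.712). IL1B had 1.70 and 0.84 (difference 0.86, adjusted p = 0.81). In all of these the fold change was larger in BHLHE40-KD. They had passed the threshold in BHLHE40-KD, and a choice by those values favours a larger fold change there. Over all 235 rises the median was 0.95 in BHLHE40-KD and 0.61 in LM-EV. For DDIT4 (1.40 and 1.88), PDK4 (1.82 and 2.04), ANGPTL4 (1.17 and 2.20) and SRSF6 (-0.90 and -1.11) the fold change was smaller in BHLHE40-KD than in LM-EV. Their interaction adjusted p were 0.824, 0.967, 0.857 and 0.918. BHLHE40 itself had 1.26 in BHLHE40-KD and 0.92 in LM-EV (difference 0.34, SE 0.41, adjusted p = 0.933).

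**Figure D5:**
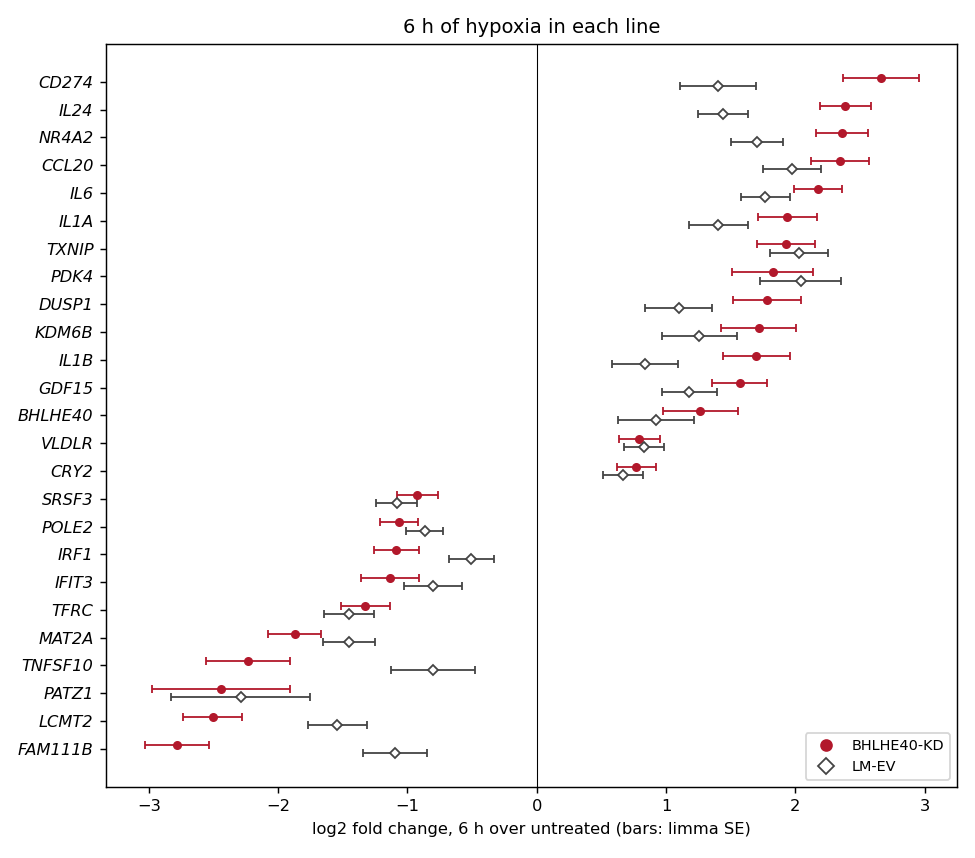
Log2 fold change of 25 genes after 6 h (x axis, with limma SE as bars) in BHLHE40-KD cells (red circles) and in LM-EV cells (open diamonds). TXNIP, VLDLR and PATZ1 nearly coincide in the lines, and FAM111B, TNFSF10 and CD274 are among those with the widest gap, which did not pass the interaction test. PATZ1, FAM111B and TNFSF10 were not detected on the hypoxic BHLHE40-KD arrays. In hypoxic LM-EV cells PATZ1 read 30.1 and 11.2, also below detection, so its 2 fold changes rest on undetected signals.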

How the data were processed

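RNA of 12 samples was hybridized to Illumina HT-12 bead arrays. The authors exported the deposited signals from GenomeStudio (version not given in the sources used here) as background-subtracted, quantile-normalized intensity on a linear scale, with a detection p-value per probe. The deposited bead signal (intensity before normalization) was read only for checks and, on slide 1, for an alternative background correction. Of 47302 probes, 30105 carried 1 gene symbol, 8 several and 17189 none in the platform annotation.

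Normalized signals were floored at 16 (38.7% of values) and log2-transformed. A probe was kept if some group had it detected on each of its arrays, and 1 probe was used per gene. limma 3.58.1 in R 4.3.3 was fitted to all 12 arrays with 6 group means and the slide as a block, with Benjamini-Hochberg adjustment over 12336 genes, and was tested on simulated data. The slide, the chip number in the titles, pairs the samples: deviations of same-slide arrays correlated at over 0.1 in 13 of 15 pairs of groups (median 0.163), though at -0.0229 for the 2 groups compared here. Named genes were, by fold change, the top 15 called genes in each direction that moved alike on both slides, up to 5 interactions, and key members of 33 gene lists. Other members are covered by the counts and ranges of their lists. The members and lists were chosen with earlier results of these data known. Alternatives were other floors, filters, probe rules, scalings, sample sets and fits, and leaving out each array. The number of arrays limits the precision.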

Additional observations from a re-analysis of the deposited data

Results flagged for a closer look

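The response to 6 h of hypoxia differed between the lines past the interaction threshold for 3 genes. The difference, BHLHE40-KD minus LM-EV on the log2 scale, was 3.07 for GPRACR (1.86 in BHLHE40-KD and -1.20 in LM-EV, limma adjusted p = 0.0179). It was 2.89 for SYCP2 (1.37 in BHLHE40-KD and -1.53 in LM-EV, limma adjusted p = 0.0179), which was detected on none of the 4 BHLHE40-KD arrays. For RPRM it was -1.72 (-1.72 in BHLHE40-KD, and 0 in LM-EV, where every array lay under the floor, limma adjusted p = 0.019). These values rest on the floor of 16 and on signals below detection: GPRACR was detected on neither untreated BHLHE40-KD array, so that it was at least 1.28-fold higher at 6 h there, and RPRM on neither hypoxic one, and with a floor of 64 none of the 3 passed in limma (913 genes at an unadjusted p under 0.05). Groups of 2 arrays are too small to test single arrays as outliers.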

How the results depend on the processing

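In BHLHE40-KD 6 h against untreated, the 636 calls became 230 without the slide as a block, 149 on 8 arrays, 1076 with an added constant, 1008 when every array had to reach a detection p under 0.01 and 1150 with an intensity trend in limma. On the 4 arrays alone the count was 0 in limma, with 1671 genes at an unadjusted p under 0.05. With 1 array left out it ran from 4 (without BHLHE40-KD untreated replicate 2) to 409, and was 64 and 138 without replicates 1 and 2 of BHLHE40-KD 6 h and 218 without BHLHE40-KD untreated replicate 1. A group left with 1 array is assumed to vary like the others. Without LM-EV untreated replicate 1 or 2 it was 295. With a floor of 64, no detection filter, the mean of the detected probes or cyclic loess it stayed within 1.5 times 636. Of 105 named genes past the threshold none turned direction under any alternative. They were chosen for passing on these same arrays, which favours that, so it is no separate evidence. In limma 0 of the 105 passed on the 4 arrays alone, 40 on 8 arrays and 58 without the slide as a block. By list, that fit kept 2 of 3 rises of growth factors, 3 of 4 falls of interferon-stimulated genes, 1 of 3 falls of splicing factors, the rise but not the 2 falls of TGF-beta and YAP response genes, and 1 of 2 calls each of JmjC demethylases, BCL2 members, autophagy genes and genes of the methionine cycle. It kept 0 of the calls of HIF targets, ATF4 targets, clock genes and EGF genes, which number 1, 1, 2 and 1.

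The interaction count of 3 became 17 with no detection filter, 3 without the slide as a block and 0 in limma on 8 arrays (729 genes at an unadjusted p under 0.05), with a floor of 64 (913), with the constant (735), with stricter detection (584) and with the trend (701). With 1 array left out it ran from 0 to 6 (6 without BHLHE40-KD 6 h replicate 2).

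For 48 h against 6 h the 238 calls became 99 without the slide as a block, 537 with a floor of 64, 771 with the constant, 740 with stricter detection, 139 with no filter and 1006 with the trend. With 1 array left out they ran from 4 (without BHLHE40-KD 6 h replicate 1) to 207. The 8-array fit was not run for it, since it holds no 48 h arrays. The 1.5-fold rule, met by 1028 genes, was met by 446 with the constant, by 531 with stricter detection, by 2657 to 2963 on 1 slide alone and by 316 at 2-fold.

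Among the named genes that were not called, 3 changed direction when 1 array was left out. LDHA gave 0.14 with the mean of its detected probes and -0.034 to 0.014 with 1 array left out, HIF1A -0.14 to 0.27 and MYC -0.27 to 0.41. The cause was not tested. Signals near background limit the dim genes: 666 genes had 1 or more of the 4 arrays at the floor.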

Other observations

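Of 14 CDK inhibitors, cyclins and p53 targets 2 rose, CDKN1C and CCNG2 (14.3%, against 1.9% of all genes), and of 9 MYC network genes 1 rose, MXD1 (11.1%). INSIG1, which holds SREBP in the endoplasmic reticulum, was the only rise among 23 genes of cholesterol and fatty acid synthesis (4.35%, against 1.9% of all genes). Its probes gave 1.13 and 0.048. SNHG15 fell among 12 nuclear noncoding and snoRNA host RNAs (8.33%, against 3.25% of all genes), KEAP1, the adaptor that targets NRF2 for degradation, among 13 NRF2 genes (7.69%), and the zinc exporter SLC30A1 among 7 metallothionein-related genes (14.3%). Of 12 lung metastasis genes of MDA-MB-231 only PTGS2 rose (8.33%, against 1.9% of all genes). In limma 0 of 17 heat shock genes (4 at an unadjusted p under 0.05) and 0 of 5 epithelial-mesenchymal factors (1 at an unadjusted p under 0.05) passed.

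Genes with symbols starting in ZNF, mostly zinc finger factors and grouped after the values had been seen, held 30 falls among 370 tested (8.11%, against 3.25% of all genes) and 4 rises (1.08%, against 1.9%). Their median log2 fold change was -0.14 and their median untreated signal 355, against 787 for all genes tested.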
